A study of Mus musculus with 51 samples.

Results

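The diluent controls of the pS6-IP-Seq experiments give the receptor repertoire of juvenile mice that met no test odor. They were all 21 libraries labelled control, 7 groups of 3, out of 51 libraries in the series, and the 30 odor libraries entered no control value. For each odorant receptor (OR) gene, the deposited read estimate was divided by the sum over all 1117 OR genes listed in that library, and this share is given as reads per 100000 OR reads.

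By the methods the mice were about 3 weeks old, of mixed sex and littermates, and the labels name no strain, genotype or transgene for any group; the wild-type line the study kept was C57BL/6J. Each mouse was habituated for 1 hr, then spent 1 hr with diluent on a blotting pad in an odor cassette, and RNA was captured from the whole olfactory mucosa with an antibody against phosphorylated ribosomal protein S6. The groups are named by the odor experiment they served: CPD, the macrocyclic musk ketone cyclopentadecanone; 10 mM MTMT, a thiol of male mouse urine, labelled 10mM-MTMT; β-caryophyllene, a plant and urine terpene, labelled bCaryophyllene; DHB, a brevicomin of male urine; 0.01% SBT, a dihydrothiazole of male urine, labelled p01-sbt. A further group served 1% and 100% SBT together, labelled 1p-sbt_100p-sbt, and another served (E)-β-farnesene, 2,5-DMP and 100 μM MTMT together, labelled ebFarnesene_25DMP_100uM-MTMT and called the farnesene controls here. By the study's methods MTMT and CPD were diluted in ethanol and the other odorants in water, but the labels do not name the diluent of any control, and that of the farnesene controls, which also served MTMT, was not settled. The libraries within a group count as separate mice by the study's legends. The groups served different odor experiments, but the CPD and 10 mM MTMT controls share their sample title prefixes, 3046 and 3134. Both prefixes occur within each of these groups. The DHB controls (4429 and 4575) and the 1% and 100% SBT controls (SerC and SerD) also mix prefixes. Spread within such groups includes any difference between prefixes.

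A mature olfactory sensory neuron transcribes a single OR gene out of a family spread over many chromosomal clusters, so that the OR transcripts of the mucosa add up over many small populations of neurons. S6 is phosphorylated when a neuron is active, and precipitating it enriches the ribosome-bound mRNA of active cells. Without a test odor the captured RNA is taken to reflect resting and background activity, any response to the diluent included. No unprecipitated RNA was analysed here, so RNA captured regardless of activity was not measured. In a tissue library more neurons of a type, more RNA per neuron and more S6 phosphorylation per neuron cannot be told apart. The tables list OR genes only, so the defining markers of olfactory neurons and of supporting cells were not analysed here.

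OR promoters are known for homeodomain sites bound by Lhx2 and for Ebf sites. The 250 bases upstream of the annotated start are shown for the second most abundant OR in the controls, Olfr536, and for Olfr175, an OR with a large difference among control groups. Both come from RefSeq, build GRCm38.p6, minus strand, and their starts lie 78 and 21 bases from the GENCODE starts. Capitals mark Ebf-type matches, CCCNNGGG on either strand.
Olfr536, chr7:140507319-140507568: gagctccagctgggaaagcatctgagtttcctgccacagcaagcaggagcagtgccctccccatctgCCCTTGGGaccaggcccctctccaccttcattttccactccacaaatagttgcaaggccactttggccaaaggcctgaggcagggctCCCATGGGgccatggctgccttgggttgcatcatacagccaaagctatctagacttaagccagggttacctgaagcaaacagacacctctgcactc
Olfr175, chr16:58826762-58827011: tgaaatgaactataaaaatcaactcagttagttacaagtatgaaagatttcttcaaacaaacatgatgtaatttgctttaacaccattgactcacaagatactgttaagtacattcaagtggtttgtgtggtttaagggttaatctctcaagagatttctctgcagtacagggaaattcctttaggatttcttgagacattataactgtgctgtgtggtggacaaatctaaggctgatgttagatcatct
The Olfr536 window held 2 Ebf-type matches, 183 and 96 bases upstream, and no Lhx2-type match, sought as TAATTA or TAATTG on either strand. The Olfr175 window held a match of neither kind. An Ebf-type match stood in 11.8% and a Lhx2-type match in 11.3% of all 32851 promoters of that length. Of 153 OR promoters whose starts agreed within 100 bases, 44.4% held a Lhx2-type match and 11.8% an Ebf-type match. Among the 76 of these ORs with the higher control shares 19.7% held an Ebf-type match and 48.7% a Lhx2-type match, against 3.90% and 40.3% among the 77 with the lower shares. These are descriptions of letters in a window and not of bound sites.

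Depth ran from 27301 to 137266 OR reads a library, with a median of 70658 and 1703427 in all. The 1% and 100% SBT controls were the shallowest group, at 44027, 57154 and 27301 OR reads, and stood somewhat apart: their profiles correlated with those of the other groups at a median Spearman rho of 0.754 over 753 ORs, against 0.814 over all pairs of libraries from different groups. Within groups, no pair of libraries agreed within sampling noise, and chi-square per degree of freedom ran from 5.22 to 11.1 over 21 pairs, so all 21 were kept as separate samples.

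The control repertoire was steeply unequal. The median OR held 43.6 reads per 100000 as the mean of the 7 group means, while 90% of the ORs lay between 2.25 and 314 and the most abundant OR stood 76.1-fold above the median. An even split would have given each OR 89.5, and 282 of 1117 ORs exceeded it. Shares above 1000 were found for 6 ORs, above 100 for 250, above 10 for 948 and above 1 for 1078.

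Few ORs carried much of the signal. The 7 most abundant ORs held 10% of the OR reads, 30 held 25%, 116 held 50%, 318 held 75% and 575 held 90%. In single libraries 50% of the reads fell on 87 to 125 ORs, so this concentration was a property of every library. The number was almost the same per length: after division by the exon length of each gene model, which ran from 918 to 15582 bases with a median of 2936, 115 ORs held 50%. The order of ORs by share and by share per kb was similar, with a Spearman rho of 0.916 across genes, which are not independent replicates.

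**Figure D1:**
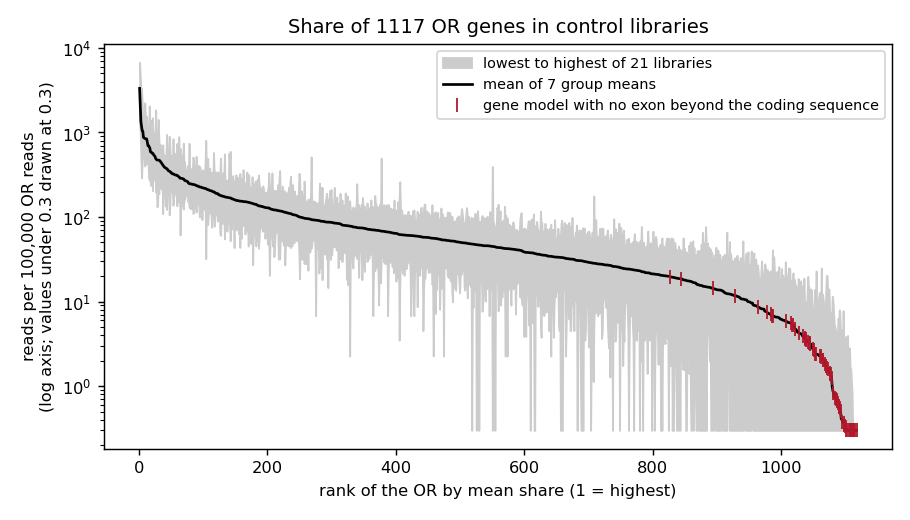
Share of each of the 1117 ORs in the 21 control libraries, as reads per 100000 OR reads on a log axis, against its rank by the mean of the 7 group means (black line), with the lowest to highest library in grey and ORs whose gene model has no exon beyond the coding sequence marked in red. The curve falls from 3320 at Olfr140 through a median of 43.6 to ORs with no read, and the red marks gather at its low end.

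Olfr140 ranked first among the OR reads captured from the control mucosa. This class II receptor on chr2:90049380-90063594, minus strand, held a mean share of 3320, or 3.32% of all OR reads, and was also first per kb of exon. Its lowest, median and highest library shares were 1246, 3146 and 6741. The 3 β-caryophyllene controls, at 4716, 6741 and 5822, were high, but DHB control 3 at 5505 overlapped them. Olfr536, on chr7:140500849-140507396, minus strand, came second with a mean of 2043, and with 1025, 2000 and 4638 as lowest, median and highest share. A lone library, β-caryophyllene control 2, held the 4638, and the next highest was 2678.

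Olfr743 followed with a mean share of 1349, at chr14:50521839-50534955, and Olfr1384 with 1184, at chr11:49506724-49517345. Olfr740 at 1048 and Olfr727 at 1034 completed the 6 ORs above 1000. Olfr15 (874), Olfr1427 (861), Olfr166 (851), Olfr742 (844), Olfr449 (843) and Olfr222 (839) filled the first 12. Together the 12 held 15.1% of the OR reads, and 9 of them were also among the first 12 per kb. The 6 from Olfr15 down lay closer to each other than any of their own ranges between libraries, so their order has no weight.

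Of the first 12 ORs, 4 lay on chromosome 14, Olfr727, Olfr740, Olfr742 and Olfr743. Olfr740, Olfr742 and Olfr743 each had their lowest share in the same library, β-caryophyllene control 3, at 443, 525 and 498. Olfr740 and Olfr743 had their highest in farnesene control 1, at 2298 and 3179. For Olfr743 the 3 farnesene controls stood at 3179, 1322 and 1552 and the 3 controls of 0.01% SBT at 3082, 1991 and 2083, above the DHB controls at 897, 908 and 1025.

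Among the first 12, the SD within groups was lowest for Olfr15, on chr16:3830878-3844747, a broadly tuned receptor often used in expression studies. Just outside the 12, Olfr309 was steadier still, with a mean of 772 and a range from 622 to 998. The share of Olfr15 ran from 595 to 1158 with a median of 841, and its 7 group means from 825 to 970. The estimate of its spread between groups was 0 on the log2 scale, as it was for Olfr1427 and Olfr222. Olfr1427 held 605 to 1145, and Olfr222 from 429 to 1562, so that a between-group estimate of 0 stood beside a wide range within groups.

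**Figure D2:**
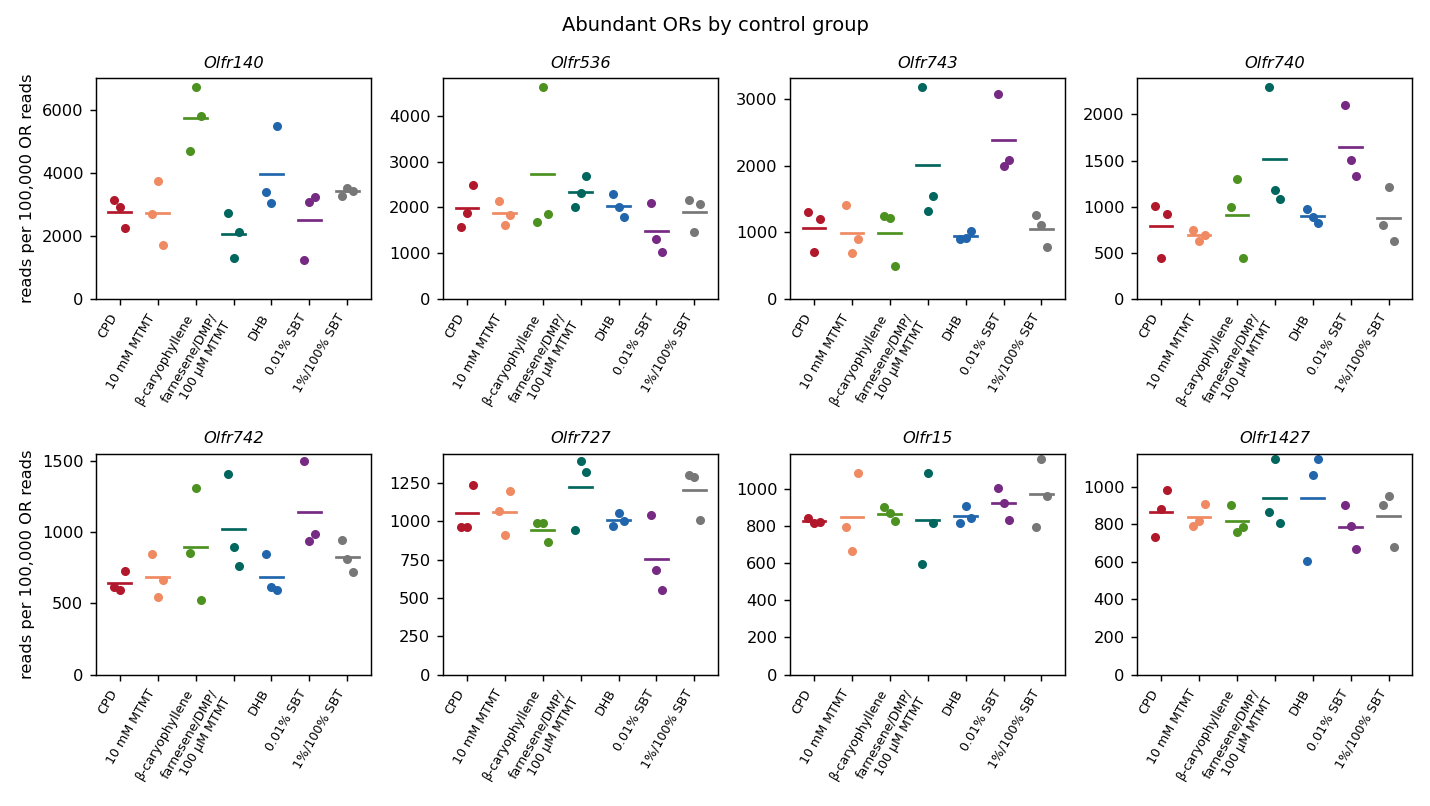
Share of 8 of the 12 most abundant ORs by control group, in reads per 100000 OR reads on linear axes from 0; points are libraries and bars the mean of 3. Olfr140 sits at 4716 to 6741 in the β-caryophyllene controls, and Olfr15 keeps its 7 group means between 825 and 970.

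Chromosomes did not contribute in proportion to their numbers of ORs. Chromosome 2 carried 288 ORs, 25.8% of the family, and 19.8% of the reads. Chromosome 7 carried 240, 21.5%, and 24.2% of the reads. Chromosome 9 carried 133 ORs, 11.9%, but 4.63% of the reads, with 3.72% to 5.53% in single libraries. Chromosome 14 carried 39 ORs, 3.49%, and 8.73% of the reads, with 6.75% to 12.2% in single libraries. The excess of chromosome 14 and the deficit of chromosome 9 were therefore present in each of the 21 libraries.

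ORs of the run on chromosome 7 that flanks the β-globin locus are the class I receptors, a fish-like family with many carboxylic acid receptors. Here the run spanned chr7:102476579-105369355 and held 127 ORs, 11.4% of those listed. It took a mean of 9.61% of the OR reads, from 6.41% in CPD control 3 to 12.2% in 0.01% SBT control 2. Its median share per kb of exon was 16.7, against 13.8 for the other ORs. Of its members, 1 had no read and 3 had under 10 reads in the controls. Olfr642, Olfr672 and Olfr599 led it with mean shares of 412, 359 and 283. The median spread of its ORs within groups, 0.477 on the log2 scale, was close to the 0.450 of the others.

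Among ORs with a known ligand or a long use as markers, levels covered nearly the whole range. Of 14 such ORs fixed as a list, Olfr15 (874) and Olfr124 (697), both broadly tuned, were high, followed by Olfr1507 (483), a receptor much used to trace axons, and Olfr17 (386), the P2 receptor. Olfr1509, a thiol receptor, stood at 212, Olfr16, a lyral receptor, at 202 and Olfr691, an acid receptor, at 135. Olfr78, a receptor of short-chain fatty acids also expressed outside the nose, stood at 87.0 and Olfr1440, a musk receptor, at 86.4. Olfr73, a eugenol receptor, held 53.5, Olfr545, a dicarboxylic acid receptor, 44.9, Olfr160, an acetophenone receptor, 42.0, and Olfr2, the octanal receptor known as I7, 29.4. Their median was 111, above the 43.6 of all ORs.

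Olfr151, the acetophenone receptor often targeted in mice, had only 12 reads, in 5 of 21 libraries, and a mean share of 0.751. Of its 50-base stretches 32.9% occur in Olfr160 as well, so reads could be divided between these genes. Its gene model has 196 exon bases beyond the coding sequence, against 2562 for Olfr160. The part of the short model and of the shared reads in this count was not tested.

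The 5 ORs on which the study concentrated had mean shares from 42.4 to 105 in the controls, against a median of 43.6 over all ORs. Olfr1295 had a mean share of 105, with 63.7, 104 and 169 as lowest, median and highest. Olfr910 held 70.3 (40.0, 64.1 and 115) and its neighbour Olfr912 60.6 (31.8, 60.1 and 117). Olfr1437 held 42.4, with a lowest share of 2.27 in 1% and 100% SBT control 1 and a highest of 81.4. Olfr235 had a median of 41.7 but reached 497 in CPD control 1, which is described among the excesses of single libraries. Of the 5, only Olfr235 passed the edgeR quasi-likelihood F test among control groups (adjusted p = 0.0326), and not without CPD control 1 (0.999).

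Very few ORs went undetected. Of 1117, 7 had no read in any of the 21 controls: Olfr1061, Olfr1367, Olfr1371, Olfr504, Olfr564, Olfr761 and Olfr891. A count of 0 in the pooled controls allows a share of up to 0.176 per 100000, taken as 3 reads, and in a single library up to 10.99 in the shallowest and 2.19 in the deepest. These limits cover counting error only. Of the 7, 4 had a few reads in the 30 odor libraries: Olfr564 5 reads in 3 libraries, Olfr891 4 reads in 1, Olfr1371 3 reads in 2 and Olfr761 2 reads in 2. Olfr1061, Olfr1367 and Olfr504 had none in all 51.

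All 7 undetected ORs are annotated as protein-coding, on chromosomes 2, 7, 9, 11, 13 and 17, and their gene models are short. Olfr1061, at chr2:86413109-86414050, Olfr1371, Olfr564 and Olfr891 have no exon base beyond the coding sequence, and Olfr504 has 1. Olfr761 has 57 such bases and Olfr1367 has 104. For Olfr1371 66.6% and for Olfr564 36.5% of the 50-base stretches also occur in other ORs, whereas for Olfr891 and Olfr1367 none do.

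The same feature marked the low end of the repertoire as a whole. Of the ORs listed, 68 have gene models with no exon beyond the coding sequence, and these held 0.208% of the OR reads. Their median share per kb of exon was 1.92, against 15.4 for the 1046 with such an exon. Under 10 reads in all controls were found for 19 of the 68 (27.9%) and for 9 of the 1046 (0.860%). None of the 68 exceeded the even share or entered the 116 that held 50% of the reads. The part of the gene model in these low counts was not tested.

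Detection was otherwise nearly complete. At least 1 read in every one of the 21 libraries was found for 868 ORs, and in some but not all for 242. Under 10 reads in total were found for 28 ORs, the 7 undetected included. A library detected 972 to 1077 ORs, with a median of 1055. Thinned to the 27301 reads of the shallowest library, the expected number was 954 to 1034, with a median of 1018. The lowest was 1% and 100% SBT control 1, which at its full 44027 reads detected 972, while control 3 of the same group detected 1014 with fewer reads.

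Spread within a control group was larger than spread between groups. Over the 753 ORs with a mean of at least 20 reads a library, the median SD of the log2 share was 0.452 within groups, a factor of 1.37, and 0.1003 between groups, a factor of 1.07. The estimate between groups was 0 for 310 ORs and exceeded that within groups for 45. Counting error alone would give a median SD of 0.206. The share of the summed variance that lay between groups was 16.3%. Without the 1% and 100% SBT controls the median SDs were 0.412 within and 0.0796 between groups.

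For a typical OR the highest group mean was 1.79-fold the lowest, and the highest library 4.13-fold the lowest. The group means stayed within a ratio of 2 for 496 of the 753 ORs and exceeded 4 for 19. The largest ratio was 15.05, for Olfr545. Rank correlations were slightly higher within groups at the median. The Spearman rho between libraries had a median of 0.839 within groups (21 pairs, 0.706 to 0.891) and 0.814 between groups (189 pairs, 0.660 to 0.896). Only 5 of the 21 libraries correlated best with a library of their own group.

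The biological coefficient of variation is the relative spread between libraries that remains after counting error, with differences in capture and library preparation included. It was 0.333 in a common fit with the group as a term and 0.365 without it. By group it ran from 0.266 in the farnesene controls to 0.494 in the 1% and 100% SBT controls, and it was 0.312 over the other 6 groups.

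The spread was lower for ORs with more reads, up to a point. The median SD within groups was 0.518 for 342 ORs with a mean of 20 to 50 reads, 0.424 for 205 ORs with 50 to 100, 0.360 for 162 with 100 to 300 and 0.362 for 40 with 300 to 1000. The 4 ORs above 1000 reads had 0.488, with a counting SD of 0.0466.

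Some ORs were steady from library to library. Among ORs with a mean of at least 100 reads, Olfr12 had the lowest SD within groups, 0.174, with shares of 182, 266 and 346 as lowest, median and highest over the 21 libraries. Olfr796, Olfr1226, Olfr1263, Olfr1368 and Olfr96 came next, the last at 0.198. For Olfr96, a receptor gene of the cluster beside the major histocompatibility complex, the 7 group means ran from 216 to 252.

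Others varied widely between libraries of a group. Olfr1383 had the largest SD within groups, 0.997, and Olfr1458 followed with 0.972, Olfr1384 with 0.889, Olfr332 with 0.846, Olfr288 with 0.726 and Olfr56 with 0.669. Olfr332 reached 1847 in farnesene control 1 and 255 and 269 in the other 2 of that group. Olfr1458 was at 282, 559 and 84.1 in the β-caryophyllene controls. Olfr1383 and Olfr1384, the first and the third of these, are neighbours 2.30 kb apart, and Olfr56 and Olfr332 lie on the same chromosome 11. That chromosome carried 83 ORs, 7.43% of those listed, and 10.9% of the OR reads. Its part among ORs with a mean of at least 100 reads was not counted.

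**Figure D3:**
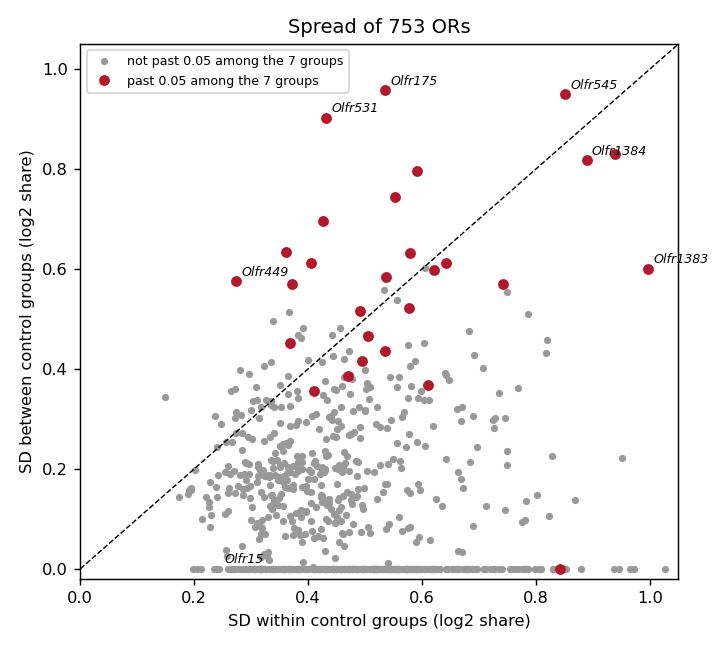
SD between control groups against SD within control groups of the log2 share, for 753 ORs; red points passed 0.05 in the edgeR test among the 7 groups and the dashed line marks equal SDs. Most ORs lie under the line, 45 lie above it, and Olfr531 and Olfr175 stand highest above it.

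Few ORs differed among the 7 control groups. Of 1089 ORs with at least 10 reads, 28 (2.57%) passed an adjusted p of 0.05 in the edgeR quasi-likelihood F test, and 133 had an unadjusted p under 0.05. The median share of the 28 was 208, against 43.6 for all ORs, those too low to be tested included. At a mean of 20 to 50 reads 6 of 342 ORs passed, with a median counting SD of 0.253. At 300 to 1000 reads 6 of 40 passed, with 0.0807. The part of read number in this was not tested. The highest group mean fell in the 0.01% SBT controls for 8 of the 28, in the CPD controls for 7, in the 10 mM MTMT and the β-caryophyllene controls for 4 each, in the farnesene controls for 3 and in the DHB and the 1% and 100% SBT controls for 1 each. Without the 1% and 100% SBT controls 22 of the 28 passed again, among 27 in that fit. The other 6, with their adjusted p there, were Olfr545 (0.781), Olfr316 (0.395), Olfr394 (0.157), Olfr887 (0.123), Olfr1328 (0.0833) and Olfr1383 (0.0697). In each of the 21 fits that left out a library, 14 of the 28 passed.

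The lowest adjusted p belonged to Olfr531 and Olfr175, both 9.19e-07, followed by Olfr545 (0.000158), Olfr290 (0.000286), Olfr1463 (0.000361), Olfr449 (0.00133) and Olfr533 (0.00242). Olfr168 and Olfr1384 (both 0.00448) and Olfr166, Olfr350, Olfr316 and Olfr1283 (all 0.00805) came next. For Olfr545 the call ended without 1% and 100% SBT control 1 (adjusted p = 0.121), and for Olfr350 without 0.01% SBT control 3 (0.884). In the whole list 9 of 28 share over 10% of their 50-base stretches with another gene, against 303 of 1114 ORs for which this was known. Olfr290 is among them, with 17.1% shared with another gene model of the same name that the study deleted from its annotation.

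Each group was also set against the mean of the other 6, in 7 contrasts that share libraries. The 10 mM MTMT controls differed in 2 ORs (0.184%), both higher, Olfr175 by 1.88 and Olfr531 by 1.68 on the log2 scale, and both passed in each of the 21 fits that left out a library. The CPD controls differed in 9 (0.826%), all higher, among them Olfr531 (1.57), Olfr175 (1.73), Olfr1463 (1.31) and Olfr235 (2.03). Without CPD control 3 the 9 became 3, and Olfr235 did not pass without CPD control 1.

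The β-caryophyllene controls differed in 5 ORs (0.459%), 4 higher and 1 lower: Olfr281 (log2 difference 1.39), Olfr213 (1.28), Olfr140 (1.12), Olfr433 (1.23) and Olfr311 (-2.08). No OR passed without control 1 or without control 2 of that group. Olfr281 was at 948, 886 and 408 in these controls and at 122.7 to 535 in the other 18. Olfr311 was at 9.08, 1.42 and 9.95, against 4.80 to 60.9 elsewhere.

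The 0.01% SBT controls differed in 22 ORs (2.02%), 19 higher and 3 lower, led by Olfr350 (1.85), Olfr491 (1.24) and Olfr93 (1.41). None of the 22 passed without control 3 of the group, while 10 ORs passed without control 1 and 18 without control 2. Olfr350 was at 113, 85.5 and 514 in the 3 libraries, Olfr491 at 399, 158 and 579, and Olfr93 at 280, 527 and 744. The third library was the highest for each of these, and for Olfr350 control 2 lay within and control 1 above the 42.9 to 97.5 of the other 18. Control 3 was not the highest of the group for Olfr743 (3082, 1991 and 2083) or Olfr887 (84.5, 152 and 105), also among the 22.

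The 1% and 100% SBT controls differed in 7 ORs (0.643%), 2 higher and 5 lower, led by Olfr545 (3.11), Olfr316 (-2.22) and Olfr290 (-1.78). Without control 1 of this group 1 OR passed, and without control 3, its shallowest library, 65 did. Control 3 is also the only library of the group with title prefix SerD, and the part of depth or prefix was not tested. Olfr316 was at 6.81, 10.5 and 18.3 in the 3 libraries, under all 18 others, which held 21.9 to 92.2. Olfr290 was at 61.3, 121 and 87.9, and the next lowest library stood at 134.

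The DHB controls differed in 0 ORs (0%) and the farnesene controls in 0 (0%) by the edgeR quasi-likelihood test, with 44 and 62 ORs at an unadjusted p under 0.05. DESeq2 called 1 and 3 and the edgeR likelihood ratio test 1 and 5. A failed test does not show that these groups match the others.

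The pair of ORs that led the test among groups, Olfr531 and Olfr175, was high in the same groups, the CPD and the 10 mM MTMT controls. Between these groups themselves 0 ORs (0%) passed, with 37 at an unadjusted p under 0.05, a lowest adjusted p of 0.780, and also 0 by DESeq2 and by the likelihood ratio test. A contrast of the 6 libraries of both groups with the 15 of the other 5 groups was added after these values had been seen, so its calls describe the pattern and are no independent test of it. CPD and MTMT were diluted in ethanol by the methods, and these are the only groups whose sample titles begin with 3046 or 3134, so diluent and title prefix cannot be told apart. The methods also give different sequencers and read lengths without naming the libraries, and their part was not tested. The farnesene controls, which served 100 μM MTMT among others, stand here with the other 5 although their diluent is not settled. In this contrast 15 ORs (1.38%) passed, 11 higher and 4 lower, and 10 of the 15 passed in each of the 21 fits that left out a library.

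Olfr531, at chr7:140399045-140402918, minus strand, held 688, 1352 and 2059 in the CPD controls and 1376, 1949 and 1278 in the 10 mM MTMT controls. The other 15 libraries lay between 273 and 557, with no overlap. The log2 difference was 1.95 ± 0.184 (SE), with an adjusted p of 1.47e-09 in edgeR's quasi-likelihood test. The values that led to this contrast entered that test, so its p is no independent support. Olfr533, 60.5 kb away with a single OR between, was at 489, 435 and 732 in the CPD controls and 523, 528 and 537 in the 10 mM MTMT controls, against 129 to 522 elsewhere, a log2 difference of 1.04.

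Olfr175, at chr16:58823662-58826782, minus strand, held 122.8, 337 and 598 in the CPD controls and 378, 439 and 406 in the 10 mM MTMT controls, against 52.4 to 123.4 in the others. CPD control 1 was the lone library to overlap. The log2 difference was 2.17 ± 0.205 (SE), with an adjusted p of 1.47e-09 in the same test and with the same limit. Across all 1089 ORs tested, the 6 and the 15 libraries did not overlap for 2 (0.184%), Olfr531 and Olfr204.

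Of the 15 ORs, 4 lay on chromosome 16, which carries 38 of the ORs tested: Olfr166 (log2 difference 1.13), Olfr171 (0.94), Olfr175 (2.17) and Olfr204 (0.96). Olfr166 and Olfr171 lie 134 kb apart with 4 ORs between them. Olfr204 held 51.7 to 83.9 in the 6 libraries and 15.2 to 50.9 in the 15, without overlap. On chromosome 2 the direct neighbours Olfr1242 (0.86) and Olfr1243 (0.85), 27.6 kb apart, were both higher. Olfr1463 (1.20), Olfr449 (0.97) and Olfr1344 (1.49) complete the 11 that were higher. Olfr449 was also high in the farnesene controls, at 1159, 1214 and 821, with a mean of 1065 against 539 to 602 in the other 4 groups of the 15 libraries.

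The 4 lower ORs were Olfr1384 (-1.96), Olfr1383 (-1.39), Olfr957 (-1.58) and Olfr432 (-1.13). Olfr1384, the fourth most abundant OR over all controls, held 314, 291 and 617 in the CPD controls and 351, 376 and 322 in the 10 mM MTMT controls. The DHB controls held 1736, 3317 and 398, and the 0.01% SBT controls 1314, 2687 and 2277. The range of the 15 other libraries, 308 to 3317, thus took in all of the 6 except CPD control 2. Its direct neighbour Olfr1383 held 32.1 to 128 in the 6 libraries and 63.7 to 808 in the 15, and its call was the least stable, passing in 9 of 21 fits that left out a library.

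**Figure D4:**
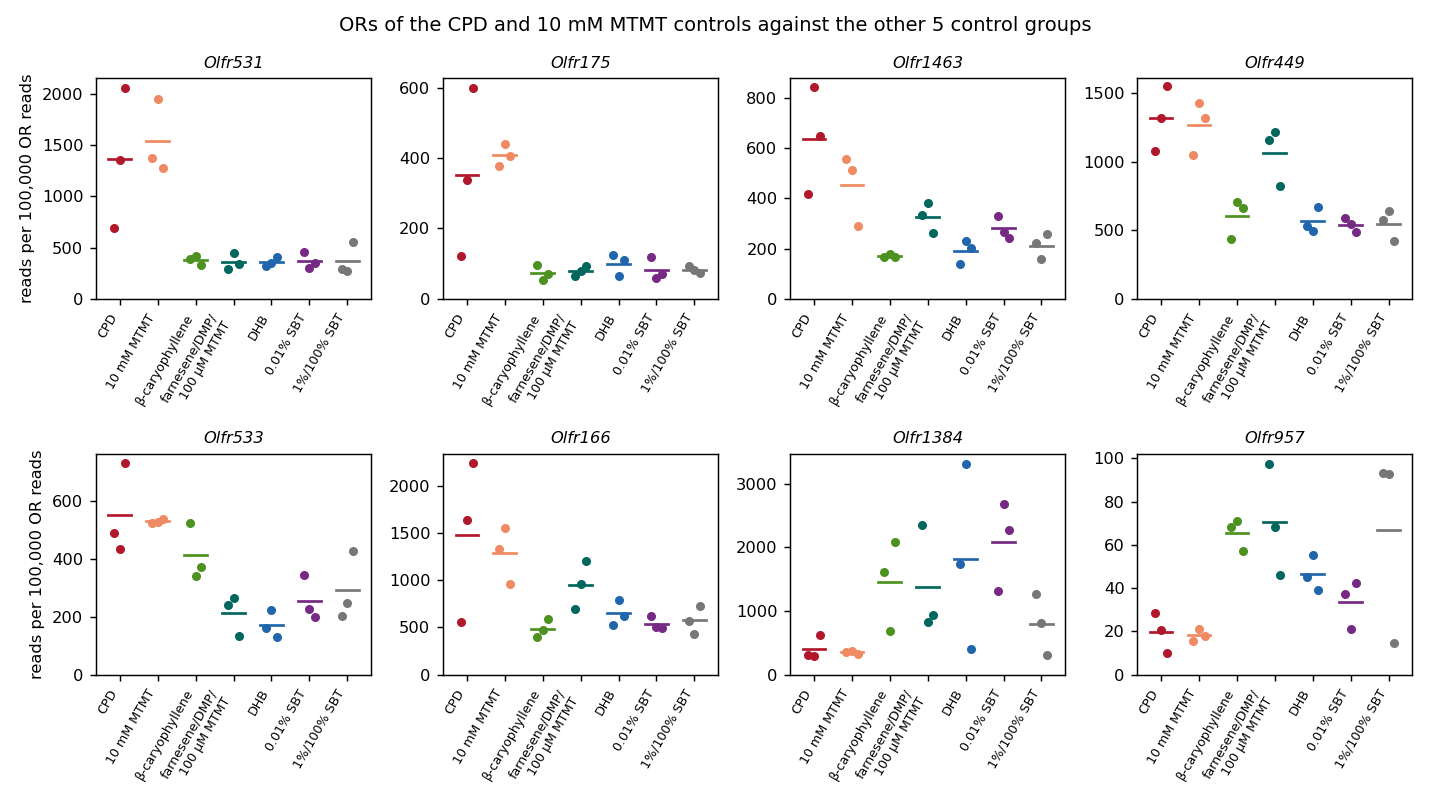
Share of 8 of the 15 ORs that differed between the CPD and 10 mM MTMT controls and the other 5 control groups, in reads per 100000 OR reads on linear axes from 0; points are libraries and bars the mean of 3. Olfr531 is at 688 to 2059 in the first 2 groups and at 273 to 557 in the others, and Olfr1384 is low in the first 2 groups.

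The odor libraries of the same experiments were not used to find these ORs, but come from litter-matched mice and so are no independent check. In the 6 odor libraries of CPD and 10 mM MTMT the median share of Olfr531 was 868, against 444 in the 24 other odor libraries, and that of Olfr449 1008 against 493. Olfr175 had medians of 188 and 111, with CPD library 1 at 61.0, and Olfr1384 had 328 and 1176. For all 15 ORs the 2 medians stood in the order seen in the controls, from a ratio of 0.279 for Olfr1384 to 2.23 for Olfr533, and the same held for 663 (60.9%) of all 1089 ORs tested. The odor exposures themselves can move these shares, and the odor libraries share litters, title prefixes and, by the methods, diluent with their controls.

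The largest excess of each OR in 1 library was set against the median of the other 20. Among ORs with at least 50 reads in the library, Olfr545 in 1% and 100% SBT control 1 stood farthest out, with 174 reads and a share of 395, 18.6-fold the median of the other 20 libraries. The other 2 controls of that group held 103 and 58.6, and no other library exceeded 42.7. In the odor libraries of that experiment, 1% SBT library 1 held 14397 for this OR, 1% SBT library 2 336, and the other 4 from 17.4 to 72.7.

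Olfr235 in CPD control 1 came next, at 497 against a median of 41.3 in the other 20, a ratio of 12.03. Olfr1431 was high in the same library, at 178 or 8.84-fold, and shares 50-base stretches with Olfr235, of whose stretches 11.8% occur in Olfr1431. Olfr1440, the musk receptor named above, also had its highest control share there, 212, with a second highest of 143. Olfr1437, which the study names with Olfr235 as responding to CPD, was not high there. It held 35.9 in CPD control 1, against a median of 40.8 over all controls. In the CPD odor libraries Olfr235 held 1037, 43.2 and 426, Olfr1431 191, 24.7 and 153, and Olfr1440 1425, 31.5 and 173. Olfr1440 also reached 729 in 10 mM MTMT odor library 1, but held 41.1 and 47.2 in the rest of that group. The 24 other odor libraries held 31.7 to 102.5. What raised these shares was not tested.

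Olfr350 and Olfr1148 in 0.01% SBT control 3 held 514 and 261, 7.27-fold and 6.70-fold the median of the other 20 libraries, and the next highest library held 113 and 117. Olfr1383 in DHB control 2 was at 808 (6.92-fold) with a next library at 535, Olfr175 in CPD control 3 at 598 (6.45-fold) with a next library at 439, and Olfr1283 in 1% and 100% SBT control 1 at 309 (5.99-fold). These last 3 were thus high in several libraries. Olfr1283 was spread over the whole range, with 251, 169 and 185 in the CPD controls and 22.6, 26.8 and 26.9 in the 0.01% SBT controls.

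Libraries differed in how many ORs stood out. In 0.01% SBT control 3, 16 of the 387 ORs with at least 50 reads were 3-fold or more above the median of the other libraries. Control 2 of that group had 9, and 1% and 100% SBT control 1 had 8 of 235. β-caryophyllene control 3, DHB control 3 and 0.01% SBT control 1 had none. The other libraries had 1 to 6.

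**Figure D5:**
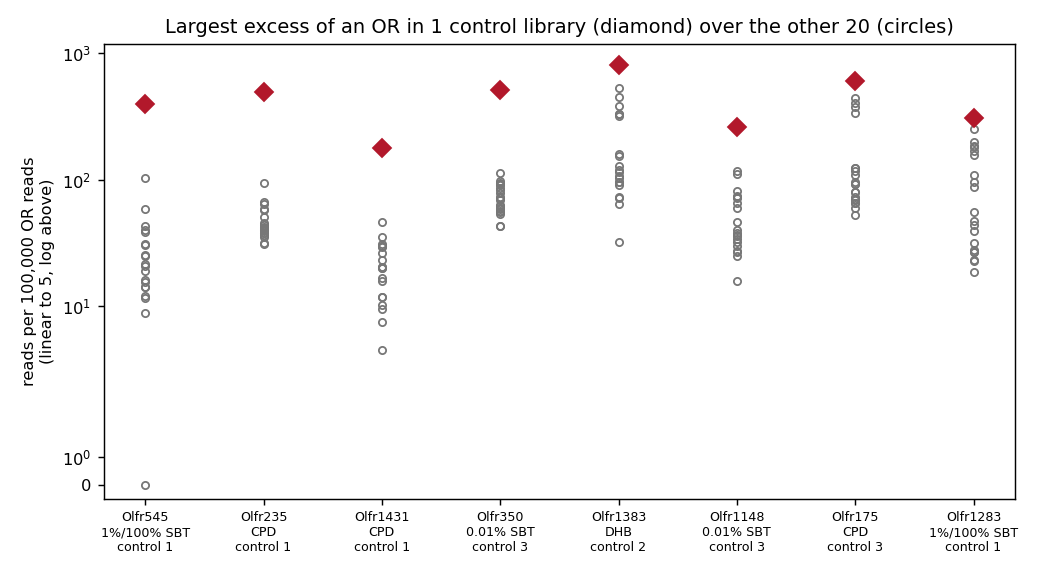
The 8 largest excesses of an OR in 1 control library (red diamond) over the other 20 (grey circles), in reads per 100000 OR reads, linear up to 5 and log above. Olfr545 stands at 395 over a median of 21.3, and Olfr235 at 497 over 41.3.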

How the data were processed

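Whole olfactory mucosa was subjected to pS6-IP-Seq, and the 21 control libraries were analysed. The authors aligned reads to GRCm38 with STAR and deposited estimated counts per gene from RSEM as whole numbers, for intact OR genes only. By the methods, libraries were made with SMART-Seq v4 and Nextera XT kits, which do not mark strand, so reads of overlapping genes on opposite strands cannot be separated. The tables also hold fold changes, p-values and FDRs of the authors' comparisons, which were not used. In the table for 2-heptanone, per-sample columns that matched no sample, 6 in number, were not used.

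Samples were grouped by the labels' odorant among controls. Expected counts were divided by the OR total of their library. Depth is the OR total, since only OR genes are listed. Gene models and coordinates came from GENCODE M21, so coordinates may differ slightly from the release the authors used. In edgeR 4.0.16 (R 4.3.3), quasi-likelihood F tests with group as the term and TMM factors over ORs were run on the ORs whose 21 control libraries held 10 or more reads together, with Benjamini-Hochberg adjustment over all ORs tested, and called at 0.05. Changes were simulated in a lone group, and only the test among groups and the contrast of that group were checked on these counts. P-values set differences between group means against the spread between these libraries within groups, estimated in a common fit. SDs within and between groups are variance components of log2(share + 5). Alternatives were DESeq2 1.42.0, the likelihood ratio test, library totals without TMM, other filters and pseudocounts, a replicate block, and leaving out each library. SDs, BCV and calls without the 1% and 100% SBT controls, and the contrast of CPD and 10 mM MTMT controls with the others, were added after the data had been seen.

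The ORs named were the 12 most abundant, those at 0, those with the lowest p in each test, the 8 largest single-library excesses, the 6 steadiest and 6 most variable ORs with a mean of at least 100 reads, and 3 lists: 5 ORs of the study, 14 well-known ORs and the globin-flanking run. The added contrast lists all its calls. The libraries and lists were chosen with earlier results of these data known. Python 3.11.15 with pandas 2.3.3 and scipy 1.17.1 was used for shares and motifs.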

Additional observations from a re-analysis of the deposited data

How the results depend on the processing

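Of 86 values recomputed under other settings, 64 kept within the spread between replicates or within 1.5 times the main count, and 22 moved. DESeq2 called 60 ORs among the 7 groups, 4 for the 10 mM MTMT controls, 28 for the 1% and 100% SBT controls, 8 for the β-caryophyllene, 1 for the DHB and 3 for the farnesene controls, but fewer than the main test for the CPD controls (8 against 9) and the 0.01% SBT controls (19 against 22). The edgeR likelihood ratio test called 64, 4, 47, 9, 1 and 5, and 11 for the CPD and 26 for the 0.01% SBT controls. Without TMM factors 18 passed for the 1% and 100% SBT controls and 2 for the farnesene controls, and with ORs of at least 1 read 8 passed for the β-caryophyllene and 2 for the farnesene controls. ORs with at most 10 reads numbered 32 instead of the 7 with none. A library detected a median of 1028 ORs with at least 2 reads, 967 with at least 5 reads and 1017.9 when thinned to the shallowest. The median SD within groups was 0.362 with a pseudocount of 20 and 0.362 over ORs with a mean of at least 100 reads.

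Leaving out each library in turn gave 19 to 37 ORs among the 7 groups, 2 to 3 for the 10 mM MTMT, 1 to 65 for the 1% and 100% SBT, 0 to 10 for the β-caryophyllene, 3 to 11 for the CPD, 0 to 5 for the DHB, 0 to 2 for the farnesene and 0 to 23 for the 0.01% SBT controls. Beside a group's own libraries, the β-caryophyllene count moved to 3 without 10 mM MTMT control 3, 2 without DHB control 2, 8 without 0.01% SBT control 1 or control 3 and 10 without 1% and 100% SBT control 1, and it was 3 without its own control 3. The DHB count was 5 without DHB control 3, the only DHB control with title prefix 4575. The farnesene count was 1 without farnesene control 3, 10 mM MTMT control 3 or 1% and 100% SBT control 1, and 2 without 0.01% SBT control 1. The contrast added after the data had been seen gave 11 to 17, and 14 to 22 under the other settings. In these fits a group of 2 is assumed to vary like the rest.

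Replicate numbers did not pair libraries of different groups: their deviations correlated at a median of -0.0049 over 63 pairs, and 6 of 21 libraries lay closest to one of their own number. With a replicate block 27 ORs passed among the 7 groups, 26 of them among the main 28, and 2, 6, 6, 8, 0, 0 and 18 for the 10 mM MTMT, 1% and 100% SBT, β-caryophyllene, CPD, DHB, farnesene and 0.01% SBT controls. The block left 0 between CPD and 10 mM MTMT controls, 15 in the added contrast and a BCV of 0.338. The title prefix could not be fitted beside the 7 groups for the test among them. With it as a term 0 ORs differed between CPD and 10 mM MTMT controls and the BCV was 0.329. The depth of the shallowest library, 27301 OR reads, limits detection of an OR there to 10.99 per 100000.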
